A study of Mus musculus with 8 samples.

Results

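A set of 10 genes of Toll-like receptor signalling was followed through a mouse tumor and 3 cell populations sorted from it. It held the receptors Tlr1, Tlr2, Tlr3, Tlr4, Tlr7, Tlr8 and Tlr9, the adaptor Myd88, and the lipopolysaccharide co-receptors Cd14 and Ly96. These 10 were listed by name among the 23952 gene symbols of the deposited table, and all 10 were found. Ly96 and Tlr1 each had 2 transcripts in the table, and the one with the higher mean level was used. The list of names uses no measured value, but it was drawn up with earlier results of these data known.

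The tumors had grown from Lewis lung carcinoma cells, a mouse lung carcinoma line. Those cells were sorted for a dTomato vector (a red fluorescent protein) in culture before injection under the skin of both flanks. The hosts were transgenic mice whose green fluorescent protein (GFP) is driven by Col1a1, a collagen gene of fibroblasts, and every sorted group came from such tumors. Collagen carrying an Alexa dye was injected into the tumors 24 h before sorting. The LLC group held dTomato+ cells and the Fibroblast group held GFP+ cells. The TAM group held tumor-associated macrophages, which the labels call M2, taken as cells lacking dTomato and GFP that stained for F4/80 and had taken up collagen. The Total tumor group held RNA of whole tumors. Each of the 4 groups had 2 libraries, numbered 1 and 2 here. No strain or age was found in the sources used here. Nothing there says that the paired libraries stem from different animals. The p-values therefore measure only the spread between these libraries.

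Toll-like receptors are membrane proteins by which innate immune cells sense molecules of microbes and of damaged tissue. Receptors at the cell surface bind lipids and lipoproteins, while those in endosomes bind RNA and DNA. All of the receptors named here except Tlr3 pass their signal through Myd88, Tlr3 uses the adaptor Ticam1 (TRIF), and Tlr4 can use both. In macrophages, this signalling ends in NF-kB and IRF transcription factors and in the production of cytokines and chemokines.

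The DNA just before the start of 5 of these genes is shown, as a selection from 2 kinds of pattern. Tlr1, Tlr8 and Tlr9 were at low levels in LLC and Fibroblast, at most 1.88 RPKM, while Tlr3 and Myd88 were above 1 RPKM in every sorted library. Tlr4 and Ly96 were also above 1 RPKM in all of those. Cd14 was as well, but at 1.86 to 2.52% of its TAM mean in LLC and Fibroblast. Tlr7 was at most 2.55 RPKM in LLC and Fibroblast, and Tlr2 at most 2.45 in LLC and 7.38 in Fibroblast. The DNA of Tlr2, Tlr4, Tlr7, Cd14 and Ly96 is not shown. RPKM, the deposited unit, is the number of reads scaled to transcript length and to the size of the library. Each line holds the 250 bases before the RefSeq start site in GRCm38.p6, 5′ to 3′ on the gene's strand. Capitals mark matches, on either strand, to 4 motif words: GAGGAA (core of PU.1 sites), GAAA, any 2 bases and GAAA (IRF sites), GGG, any 2 bases and TTTCC (NF-kB sites), and TGANTCA (AP-1 sites). PU.1 is a transcription factor of the macrophage lineage.
Tlr1, chr5:64933559-64933808, minus strand: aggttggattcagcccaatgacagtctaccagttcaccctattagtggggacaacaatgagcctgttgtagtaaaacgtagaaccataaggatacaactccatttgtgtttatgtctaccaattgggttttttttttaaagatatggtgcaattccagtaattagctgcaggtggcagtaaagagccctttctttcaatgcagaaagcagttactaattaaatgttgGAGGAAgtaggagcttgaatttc
Tlr8, chrX:167264330-167264579, minus strand: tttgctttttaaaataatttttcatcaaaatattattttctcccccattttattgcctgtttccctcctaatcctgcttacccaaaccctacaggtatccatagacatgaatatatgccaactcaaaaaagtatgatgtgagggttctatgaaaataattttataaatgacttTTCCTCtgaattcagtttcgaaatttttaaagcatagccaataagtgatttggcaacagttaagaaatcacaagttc
Tlr9, chr9:106222348-106222597, plus strand: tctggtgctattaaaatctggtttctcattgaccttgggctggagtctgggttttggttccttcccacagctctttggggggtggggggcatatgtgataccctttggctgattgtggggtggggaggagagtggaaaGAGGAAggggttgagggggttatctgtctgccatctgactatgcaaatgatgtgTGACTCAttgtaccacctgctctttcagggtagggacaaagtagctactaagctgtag
Tlr3, chr8:45410381-45410630, minus strand: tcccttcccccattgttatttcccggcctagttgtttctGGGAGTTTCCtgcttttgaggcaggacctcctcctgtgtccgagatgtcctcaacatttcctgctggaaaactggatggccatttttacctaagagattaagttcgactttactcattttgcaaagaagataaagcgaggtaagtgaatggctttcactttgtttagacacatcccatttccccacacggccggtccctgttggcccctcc
Myd88, chr9:119340019-119340268, minus strand: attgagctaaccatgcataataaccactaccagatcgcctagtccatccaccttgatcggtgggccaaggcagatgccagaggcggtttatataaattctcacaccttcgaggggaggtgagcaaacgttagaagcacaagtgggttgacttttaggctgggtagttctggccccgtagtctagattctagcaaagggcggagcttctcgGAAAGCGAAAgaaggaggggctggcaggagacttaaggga

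GAGGAA lay 23 bases before the start of Tlr1 and 112 bases before that of Tlr9, and its reverse complement, TTCCTC, 77 bases before that of Tlr8. Tlr9 also held the AP-1 word 58 bases before its start. In Tlr3, an NF-kB word lay 211 bases upstream, and in Myd88 an IRF word lay 40 bases upstream. No 2 of the 4 words overlapped in these windows. Tlr9 held TTCCTC once more, after its start, and the window of Tlr2 and that of a second RefSeq start of Tlr1 held none of the words. Counting the window from 250 bases before to 50 after the start, GAGGAA was present in 28.3% of all 32851 RefSeq windows. The IRF word was present in 3.44% of them, the NF-kB word in 1.63% and the AP-1 word in 7.81%. The 300 base windows of Tlr8 and Tlr9 were poor in CG dinucleotides, with 1 and 0, against a median of 7 over all windows. The Tlr1 window shown here held 3, and that of the second Tlr1 start held 9. Those of Tlr3, Tlr2 and Myd88 held 10, 11 and 13. A match is a description of letters and not a measured binding site. Whether these words bear on the levels was not tested.

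The libraries differed in depth and in their content of other cells. The table holds no read counts, and depth estimated from its lowest values was 8.54 to 10.37 M reads in the libraries numbered 1 and 4.28 to 4.72 M in those numbered 2. The 8 macrophage markers (Emr1, Cd68, Csf1r, Lyz2, C1qa, C1qb, C1qc and Ptprc), of which Emr1 encodes the F4/80 used in the sort, summed to 18700 and 14200 RPKM in TAM. They summed to 75.7 and 472 RPKM in LLC, 198 and 255 in Fibroblast and 1360 and 3890 in Total tumor, and none was at 0 in any library. The 7 fibroblast markers summed to 23200 and 21800 RPKM in Fibroblast, 3720 and 4940 in LLC, and 128 and 623 in TAM. Markers of other cells were low in the sorted libraries: in TAM, neutrophil markers summed to 69.3 and 61.3 RPKM, T and NK cell markers to 16.3 and 26.2, conventional dendritic cell markers to 27.1 and 44.1, endothelial markers to 13.9 and 28.2 and mast cell markers to 17.8 and 7.07. In LLC and Fibroblast each of these sums was at most 10.8 RPKM, except the endothelial markers in Fibroblast (55.9 and 51.8). Thus LLC 2 held more macrophage marker RNA than LLC 1, and TAM 2 more fibroblast marker RNA than TAM 1. Total tumor 2 differed from Total tumor 1 with transcript length, as described with the whole tumor below. In bulk RNA, fewer cells of a type and less RNA per cell cannot be told apart.

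Of the 10 genes, 9 (all but Tlr3) had their highest mean in TAM, and the share of all genes doing so was not counted. On log2(RPKM + 1), 9 were higher in TAM than in LLC (limma, Benjamini-Hochberg adjusted p under 0.05 over 13311 genes), where 15.4% of all genes tested were called higher and 27.5% lower. Against Fibroblast 9 were also higher, where 17.4% of all genes were called higher and 17.3% lower. Tlr3 was the gene not called in either comparison. The median log2 difference of the 10 was 3.36 against LLC and 3.17 against Fibroblast, beside -0.38 and 0.13 over all genes. All 10 passed the low-value filter, 1 RPKM in 2 libraries, and all 10 also passed it without counting TAM. Leaving out 1 library at a time gave between 7 and 9 genes called higher than LLC and between 6 and 9 called higher than Fibroblast. The comparisons share the TAM libraries, so the 2 counts are not independent. The shares of all genes called with 1 library left out were not counted, here or below.

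**Figure D1:**
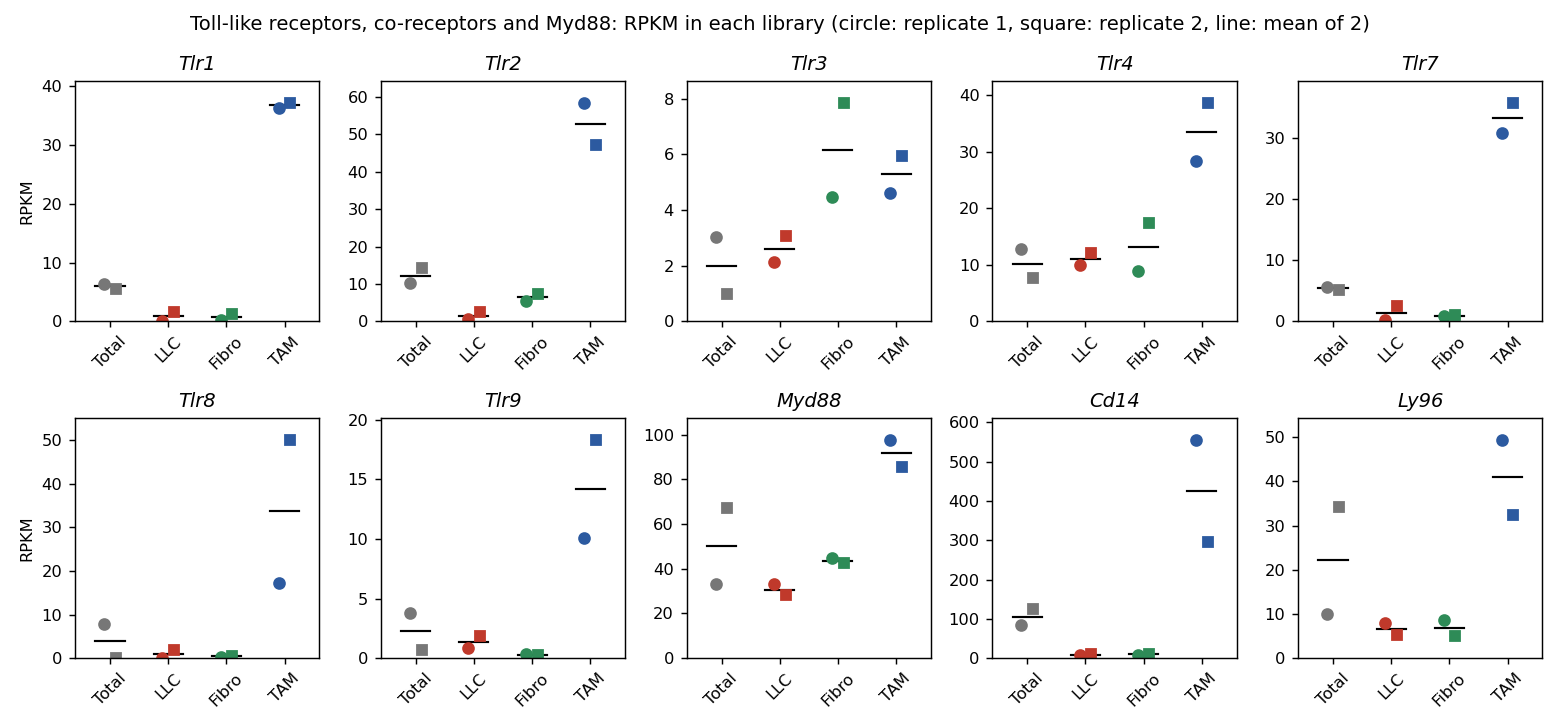
RPKM (linear axes starting at 0) of each of the 10 genes in the 2 libraries of each group. Circles are replicate 1, squares replicate 2 and lines the mean of 2. Ly96 in Total tumor 2 (34.3) lies above TAM 2 (32.5), and Tlr3 peaks in Fibroblast 2 (7.84). For the other genes both TAM libraries lie above every other library, and the share of all genes doing so was not counted.

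The receptor for bacterial lipopolysaccharide is made of Tlr4 and the small protein MD-2, which Ly96 encodes, and Cd14 hands the ligand to them. Its parts were spread differently over the populations, though each was above 1 RPKM in LLC and Fibroblast. Relative to its TAM mean, Cd14 was the lowest of them there, at 1.86 to 2.52%. Tlr4 stood at 26.5 to 51.8% and Ly96 at 12.3 to 21.2%. Cd14 (NM_009841) measured 556 and 295 RPKM in the TAM libraries, 7.91 and 10.1 in LLC, 8.49 and 10.7 in Fibroblast and 85.4 and 124 in Total tumor. TAM did not overlap with any other group, and the means were 426 ± 184 RPKM (SD, n = 2 here and below) in TAM, 9.02 ± 1.57 in LLC and 9.60 ± 1.57 in Fibroblast. The log2 difference was 5.35 from LLC (SE 0.35, limma adjusted p = 0.000119) and 5.27 from Fibroblast (SE 0.35, adjusted p = 0.000104). Cd14 lay above 99.2 and 98.7% of all tested genes in the TAM libraries and was the most abundant of the 10 there.

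Tlr4 (NM_021297), the signalling subunit, measured 28.2 and 38.6 RPKM in TAM, 9.95 and 12.2 in LLC, 8.85 and 17.3 in Fibroblast and 12.8 and 7.59 in Total tumor. The TAM libraries were the highest, and the 3 other groups overlapped one another. The TAM mean of 33.4 ± 7.31 exceeded the LLC mean of 11.1 ± 1.57 by 1.5 on the log2 scale (SE 0.38, limma adjusted p = 0.0147). It exceeded the Fibroblast mean of 13.1 ± 5.98 by 1.34 (SE 0.38, adjusted p = 0.0268). The call against LLC was lost without LLC 1 (adjusted p = 0.0869) or TAM 2 (0.0911), over a range of 0.00156 to 0.0911 in 16 alternatives. The call against Fibroblast was lost without Fibroblast 1 (difference 0.89, adjusted p = 0.198), TAM 1 (0.0627) or TAM 2 (0.149), and with upper-quartile (0.0879) or quantile scaling (0.0676), over a range of 0.00679 to 0.198.

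Ly96 (NM_001159711) measured 49.5 and 32.5 RPKM in TAM, 7.97 and 5.15 in LLC, 8.68 and 5.05 in Fibroblast and 9.94 and 34.3 in Total tumor. TAM stood above both sorted populations, and the whole tumors reached from near the LLC level into that of TAM. The difference from LLC (6.56 ± 2.00 RPKM against 41.0 ± 12 in TAM) was 2.47 on the log2 scale (SE 0.55, limma adjusted p = 0.00895). The difference from Fibroblast (6.86 ± 2.57 RPKM) was 2.43 (SE 0.55, adjusted p = 0.0104). Without LLC 2 the first became 2.20 (adjusted p = 0.0577) and without TAM 1 it became 2.17 (0.0648), the highest of 16 alternatives that began at 0.000514. Without Fibroblast 2 the second became 2.09 (adjusted p = 0.0782) and without TAM 1 it became 2.13 (0.0778), in a range from 0.00119 to 0.0782. The transcript used is 429 bases long, so LLC 2 and Fibroblast 2 rest on about 9.5 and 10.2 reads. The other Ly96 transcript, NM_016923, stood at 50.8 and 30.7 RPKM in TAM, against 7.25 and 6.63 for LLC.

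The balance of the 3 parts followed from these levels. The ratio of Cd14 to Tlr4 RPKM was 0.795 and 0.832 in LLC, 0.959 and 0.619 in Fibroblast, and 19.7 and 7.65 in TAM. The ratio of Ly96 to Tlr4 was 0.801 and 0.423 in LLC, 0.981 and 0.292 in Fibroblast, and 1.75 and 0.842 in TAM. The first ratio set TAM apart from the other sorted libraries, and the second overlapped. In Total tumor the first was 6.69 and 16.4, overlapping TAM, and the second was 0.778 and 4.52.

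Tlr2 recognizes bacterial lipoproteins as a pair with Tlr1 or Tlr6. Tlr2 (NM_011905) measured 58.4 and 47.2 RPKM in TAM, 5.52 and 7.38 in Fibroblast, 0.606 and 2.45 in LLC and 10.3 and 14.2 in Total tumor. The 4 groups did not overlap, with TAM highest and LLC lowest. TAM (52.8 ± 7.92) exceeded LLC (1.53 ± 1.30) by 4.51 on the log2 scale (SE 0.39, limma adjusted p = 0.000177) and Fibroblast (6.45 ± 1.31) by 2.86 (SE 0.39, adjusted p = 0.000885). Tlr2 was also the 1 gene of the 10 called between Fibroblast and LLC, described below.

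Tlr1 (NM_030682) measured 36.3 and 37.1 RPKM in TAM, 0.071 and 1.63 in LLC, 0.247 and 1.24 in Fibroblast and 6.43 and 5.53 in Total tumor. Its LLC and Fibroblast libraries overlapped at low levels, and LLC 1 held about 2 reads. TAM (36.7 ± 0.59) exceeded LLC (0.849 ± 1.1) and Fibroblast (0.743 ± 0.701) by 4.49 each on the log2 scale (SE 0.47, limma adjusted p = 0.000298 and 0.000246). With a pseudocount of 5 both calls held and the differences became 2.85 and 2.86. Of the 50 base words in the Tlr1 transcript, 16.6% also occur in Tlr6, its neighbour on chromosome 5, so reads there cannot be assigned to 1 gene. Tlr6 itself measured 6.06 and 7.13 RPKM in TAM and at most 0.648 in LLC and Fibroblast. The other 9 genes shared no such word with another gene.

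The receptors of the endosome split into 2 patterns. Tlr7 (NM_133211), a receptor for single-stranded RNA, measured 30.8 and 35.7 RPKM in TAM, 0.205 and 2.55 in LLC, 0.821 and 1.01 in Fibroblast and 5.71 and 5.20 in Total tumor. TAM was highest, Total tumor next, and LLC and Fibroblast overlapped. The TAM mean of 33.3 ± 3.51 exceeded that of LLC (1.38 ± 1.66) by 4.05 (SE 0.47, limma adjusted p = 0.000458) and that of Fibroblast (0.916 ± 0.135) by 4.16 (SE 0.47, adjusted p = 0.000351). With a pseudocount of 5 these were 2.61 and 2.69, both called.

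Tlr8 (NM_133212), its neighbour on the X chromosome and a related single-stranded RNA receptor, was the least even of the 10 between TAM libraries. It measured 17.3 and 50.1 RPKM in TAM, a 2.90-fold gap, 0.091 and 1.84 in LLC, 0.365 and 0.467 in Fibroblast and 7.75 and 0 in Total tumor. TAM was highest, and Tlr8 was listed at 0 in Total tumor 2, where 3 reads would have given 0.186 RPKM. TAM (33.7 ± 23.2) exceeded LLC (0.967 ± 1.24) by 4.12 on the log2 scale (SE 0.99, limma adjusted p = 0.0121) and Fibroblast (0.416 ± 0.0721) by 4.43 (SE 0.99, adjusted p = 0.00946). The call against LLC was lost without LLC 1 (adjusted p = 0.0807) or TAM 2 (0.0797) and with a pseudocount of 0.1 (0.0523), in a range from 0.00144 to 0.0807. The call against Fibroblast was lost without Fibroblast 1 (0.0507) or TAM 2 (0.0696) and with that pseudocount (0.053), in a range from 0.00109 to 0.0696. With a pseudocount of 5 the differences were 2.57 and 2.69, both called. The ratio of Tlr8 to Tlr7 RPKM was 0.562 in TAM 1 and 1.40 in TAM 2.

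Tlr9 (NM_031178), the receptor for unmethylated CpG DNA, measured 10.1 and 18.3 RPKM in TAM, 0.831 and 1.88 in LLC, 0.36 and 0.243 in Fibroblast and 3.83 and 0.671 in Total tumor. TAM was highest and Fibroblast lowest, with about 4 reads in Fibroblast 2. TAM (14.2 ± 5.83) exceeded LLC (1.35 ± 0.74) by 2.67 (SE 0.53, limma adjusted p = 0.00538) and Fibroblast (0.302 ± 0.0827) by 3.49 (SE 0.53, adjusted p = 0.00147). With a pseudocount of 5 these were 1.57 and 1.82, both called. Tlr9 is also a gene of B cells and plasmacytoid dendritic cells. A sum over 5 B cell markers (Ms4a1, Cd79a, Cd79b, Pax5 and Blk) was 49.5 and 16.4 RPKM in TAM, 1.1 and 0.888 in LLC, 2.11 and 1.49 in Fibroblast and 47.8 and 2.3 in Total tumor, where Pax5 and Blk were at 0 in library 2. The library higher in these markers was the lower one in Tlr9 in TAM and the higher one in Total tumor. The 6 plasmacytoid dendritic cell markers summed to 505 and 306 RPKM in TAM and 207 to 303 in LLC and Fibroblast, but Bst2, which many cells express, gave 490 and 288 of the TAM sums, and the list's median there was 1.24 and 1.12. Siglech, a defining one, measured 0.341 and 1.21 RPKM in TAM, 0.04 and 0 in LLC, 0 in both Fibroblast libraries and 1.88 and 0.885 in Total tumor. The part of either cell type in the Tlr9 level was not tested.

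Tlr3 (NM_126166), the receptor for double-stranded RNA, did not follow the other endosomal receptors. It measured 4.62 and 5.94 RPKM in TAM, 4.47 and 7.84 in Fibroblast, 2.14 and 3.07 in LLC and 3.03 and 0.979 in Total tumor. The TAM range lay inside that of Fibroblast, and both LLC libraries lay below all 4 of those. The Fibroblast mean was 6.16 ± 2.39 RPKM, the TAM mean 5.28 ± 0.934 and the LLC mean 2.60 ± 0.661. TAM minus Fibroblast was -0.16 on the log2 scale (SE 0.42, limma adjusted p = 0.817) and TAM minus LLC was 0.80 (SE 0.42, adjusted p = 0.161). Without Fibroblast 2 the first was 0.19. The second was called with quantile scaling (1.11, adjusted p = 0.0457) and with a correction for transcript length (1.26, 0.0144), in a range from 0.0144 to 0.443. Tlr3 shares 381 exon bases with Gm45542, an antisense gene, in GENCODE M21, and no source used here states the strand setting of the counting.

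Myd88 (NM_010851), the shared adaptor, was abundant in every library. It measured 97.7 and 85.7 RPKM in TAM, 44.7 and 42.6 in Fibroblast, 33.0 and 28.2 in LLC and 33.3 and 67.1 in Total tumor. The sorted groups did not overlap, in the order TAM, Fibroblast, LLC. The whole tumors lay between LLC and TAM, on either side of Fibroblast, and did not reach TAM. TAM (91.7 ± 8.55) exceeded LLC (30.6 ± 3.43) by 1.55 on the log2 scale (SE 0.33, limma adjusted p = 0.00725) and Fibroblast (43.6 ± 1.48) by 1.05 (SE 0.33, adjusted p = 0.0416). Without LLC 2 or TAM 1 the call against LLC was lost (adjusted p = 0.0503 and 0.0504), in a range from 0.000411 to 0.0504. The call against Fibroblast was lost in 10 of 16 alternatives, over a range of 0.00223 to 0.191. Those included leaving out LLC 1 (0.0693), LLC 2 (0.0694), Fibroblast 1 (0.155), Fibroblast 2 (0.191), TAM 1 (0.184) or TAM 2 (0.109). The others were no filter (0.0564), the replicate block (0.0686) and both scalings (0.0591 with upper quartiles and 0.64 at 0.0686 with quantiles). Myd88 shares 290 exon bases with Acaa1a on the opposite strand (GENCODE M21), which measured 43.4 and 39.9 RPKM in TAM and 17.3 to 20.8 in LLC and Fibroblast.

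**Figure D2:**
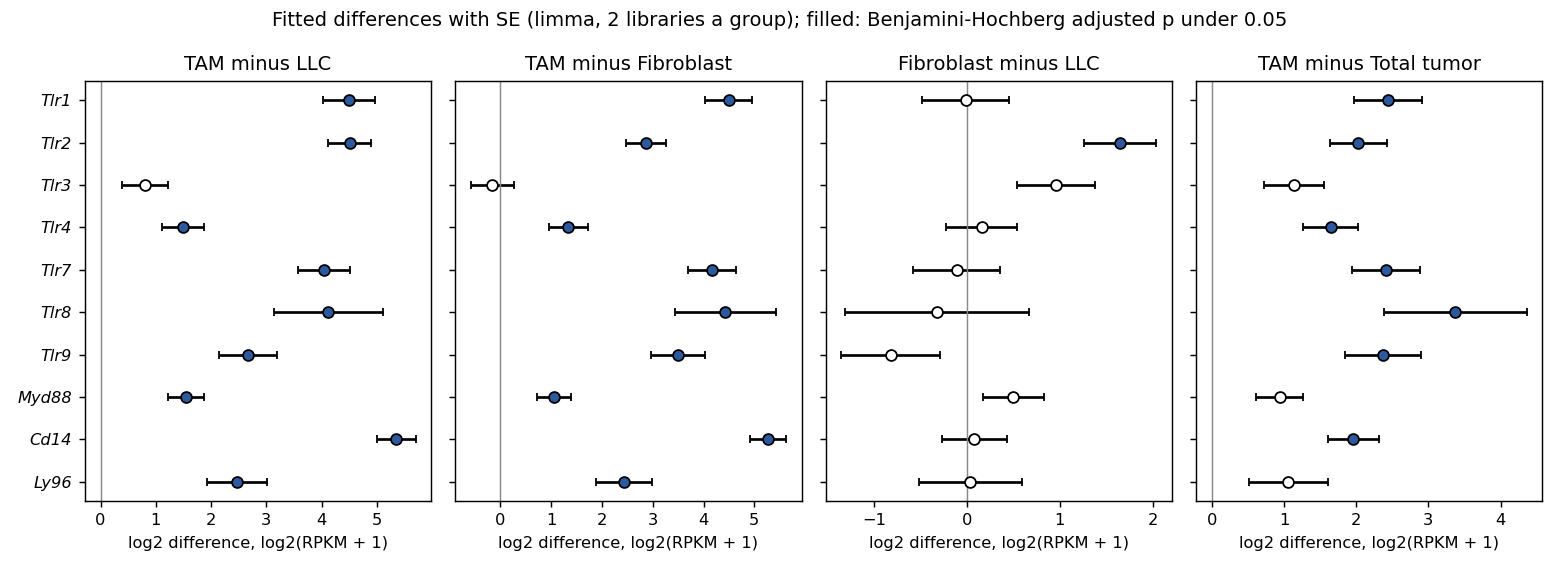
Fitted log2 differences of the 10 genes (x axes, log2(RPKM + 1)) with their SE as bars, in 4 comparisons. Filled points have an adjusted p under 0.05. In TAM against LLC and against Fibroblast all points but Tlr3 are filled, and in Fibroblast against LLC only Tlr2 is.

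Because sorted tumor cells and fibroblasts carried some macrophage marker RNA, each gene was also expressed as a percentage of its own TAM mean and set beside the same percentage for the 8 macrophage markers. Those markers ran from 0.259 to 1.25% of TAM in LLC 1, from 2.35 to 6.43% in LLC 2, from 0.96 to 2.35% in Fibroblast 1 and from 1.19 to 4.0% in Fibroblast 2. Tlr3, Tlr4, Myd88 and Ly96 lay above the markers' range in all 4 of these libraries. Tlr4 stood at 29.8, 36.4, 26.5 and 51.8% of its TAM mean, in the order just given. Myd88 stood at 36.0, 30.7, 48.7 and 46.4%, Ly96 at 19.5, 12.6, 21.2 and 12.3%, and Tlr3 at 40.5, 58.2, 84.7 and 149%. Relative to TAM, the 4 genes were thus above each macrophage marker in these libraries. The closest was Ly96 in LLC 2, at 12.6% against 6.43% for the highest marker, on about 9.5 reads. The part of macrophage RNA in these levels was not tested.

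Tlr2 divided the 2 populations. It lay inside the markers' range in LLC (1.15 and 4.63%) and above it in Fibroblast (10.5 and 14.0%). Tlr1 and Tlr8 were never above the range, at 0.194 to 4.44% and 0.27 to 5.47%. Cd14 was above it in LLC 1 (1.86%), and Tlr7 in LLC 2 (7.66%) and Fibroblast 1 (2.47%). Tlr9 was above it in both LLC libraries (5.85 and 13.2%) and in Fibroblast 1 (2.53%). All of the genes except Myd88 and Ly96 were higher in LLC 2 than in LLC 1, by 0.27 (Tlr4) to 1.56 (Tlr7) on the log2 scale. The macrophage markers were higher in LLC 2 too, and their part in those LLC levels was not tested.

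**Figure D3:**
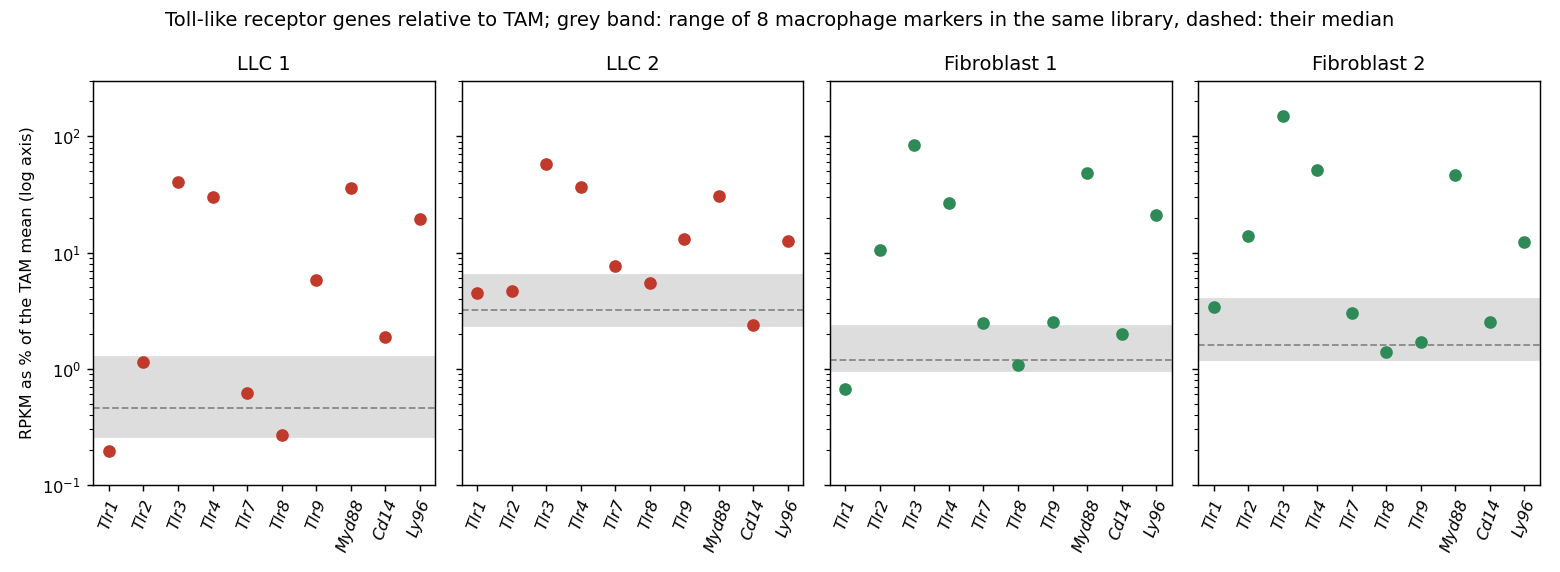
Level of each of the 10 genes in the LLC and Fibroblast libraries as a percentage of its TAM mean (log axis). The grey band is the range of 8 macrophage markers in the same library and the dashed line their median. Tlr3, Tlr4, Myd88 and Ly96 lie above the band in all 4 libraries, and Tlr2 lies above it in Fibroblast only.

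Tumor cells and fibroblasts were then compared with each other. Of the 10 genes, only Tlr2 was called higher in Fibroblast and none lower, where 13% of all genes tested were called higher and 25.7% lower. At an unadjusted p under 0.05 the count was also 1 higher and 0 lower. The difference in Tlr2 was 1.65 on the log2 scale (SE 0.39, limma adjusted p = 0.014), and 0.82 with a pseudocount of 5. It was not called without LLC 1 (1.1, adjusted p = 0.0828), Fibroblast 1 (1.83, 0.0547) or Fibroblast 2 (1.47, 0.102), the range over 16 alternatives being 0.00503 to 0.102. Myd88 and Tlr3 were higher in both Fibroblast libraries than in both LLC libraries without passing the test, by 0.50 (adjusted p = 0.262) and 0.96 (adjusted p = 0.107). Without Total tumor 1 or Total tumor 2, which are in neither group but share the fit, both passed it (Myd88 adjusted p = 0.0401 and 0.0399, Tlr3 0.0368 and 0.037). Myd88 also passed it with upper-quartile scaling (1.00, adjusted p = 0.0263), quantile scaling (0.88, 0.0223), length correction (0.80, 0.0306) and a fit of only these groups (0.0383). Tlr3 passed it with quantile scaling (1.24, 0.0343) and length correction (1.28, 0.0167). Tlr4 was close in the 2 populations (0.16, SE 0.38), as were Cd14 (0.08, SE 0.35) and Ly96 (0.04, SE 0.55). Summed over the 7 receptors, RPKM was 13.9 and 25.6 in LLC, 20.6 and 35.5 in Fibroblast, and 186 and 233 in TAM. Tlr4 made up 71.6 and 47.6% of that sum in LLC and 42.9 and 48.8% in Fibroblast. In TAM the leading receptor was Tlr2 in library 1 (31.5%) and Tlr8 in library 2 (21.5%).

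The whole tumor lay between the populations for most of the genes. TAM exceeded it in 7 of the 10, Tlr1, Tlr2, Tlr4, Tlr7, Tlr8, Tlr9 and Cd14, where 11.3% of all genes were called higher and 23.9% lower. The median difference was 2.00 on the log2 scale beside -0.36 over all genes. Tlr8 differed by 3.37 (SE 0.99, limma adjusted p = 0.0328), Tlr1 by 2.44 (SE 0.47, 0.00686), Tlr7 by 2.41 (SE 0.47, 0.00745) and Cd14 by 1.96 (SE 0.35, 0.00544). Ly96 (1.06, adjusted p = 0.173), Tlr3 (1.14, 0.0682) and Myd88 (0.94, 0.0611) were not called. The 7 calls became 4 without TAM 2, when Tlr8 (2.63, adjusted p = 0.174), Tlr9 (1.96, 0.0805) and Tlr4 (1.43, 0.0849) were lost. Tlr8 was also lost without TAM 1 (0.061) or Total tumor 2 (1.81, 0.0905), with the replicate block (0.0548), with no filter (0.0646) and with a pseudocount of 0.1 (5.06, 0.0837). Tlr2 was lost without TAM 1 (1.88, 0.0529). With a pseudocount of 0.1, Tlr1 (0.0998) and Tlr7 (0.0592) were lost as well. A fit of only these groups lost Cd14 (0.0645), Tlr4 (0.0526), Tlr8 (0.123) and Tlr9 (0.0786), so each of the 7 calls failed under at least 1 alternative. The differences of Tlr8 and Tlr9 were 2.13 and 1.41 with a pseudocount of 5, both called. Without Total tumor 2, Ly96 (1.91, 0.0126) and Myd88 (1.43, 0.00333) were called, and without Total tumor 1 Tlr3 was (1.66, 0.0139).

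LLC was lower than the whole tumor in Cd14, by 3.39 on the log2 scale (limma adjusted p = 0.019), and in Tlr2, by 2.48 (adjusted p = 0.0284), where 2.3% of all genes were called lower and 0.0526% higher. The Tlr2 difference was -1.41 with a pseudocount of 5. Cd14 was lost without LLC 1 (adjusted p = 0.112), with no filter (0.0522) and in a fit of only these groups (0.269). Tlr2 was lost without LLC 1 (0.144), Total tumor 2 (0.0855), Fibroblast 1 (0.0574), Fibroblast 2 (0.0577), TAM 1 (0.0724) or TAM 2 (0.0714), with no filter (0.0702) and in a fit of only these groups (0.287). The count was 4 without LLC 2, when Tlr1 (-2.70, adjusted p = 0.0321) and Tlr7 (-2.42, 0.0202) joined, and also 4 without Total tumor 1, when Ly96 (-2.25, 0.023) and Myd88 (-1.11, 0.0234) did. Fibroblast was lower than the whole tumor in Cd14 (-3.30, adjusted p = 0.000777), Tlr1 (-2.06, 0.0111) and Tlr7 (-1.75, 0.0211), and higher in Tlr3 (1.30, 0.0395), where 30% of all genes were called lower and 12.1% higher. Among these 4, Cd14 held in all 16 alternatives, and with a pseudocount of 5 Tlr1, Tlr7 and Tlr3 were at -0.94, -0.82 and 0.67. Tlr1 was lost without Fibroblast 1 (adjusted p = 0.0805) and with a pseudocount of 0.1 (-3.15, 0.0505). Tlr7 was lost without Fibroblast 1 (0.101) or Fibroblast 2 (0.0887), with that pseudocount (0.0607) and with upper-quartile scaling (-1.36, 0.0677). The Tlr3 call held with 1 library left out only when that was Total tumor 1. It was lost without Total tumor 2 (0.79, 0.132), LLC 1 (0.0599), LLC 2 (0.0606), Fibroblast 1 (0.0675), Fibroblast 2 (0.95, 0.234), TAM 1 (0.0605) or TAM 2 (0.0607). It was also lost with a pseudocount of 0.1 (0.051), no filter (0.0674), only these groups (0.112) and the replicate block (0.0638). Without Total tumor 1, 5 genes were called lower, with Ly96 (-2.21, 0.00494) and Myd88 (-0.61, 0.0411), and without Total tumor 2 also 5, with Tlr8 (-2.63, 0.0284) and Tlr9 (-1.89, 0.0154).

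The 2 whole tumors did not give one picture of these genes. In Total tumor 2 against Total tumor 1, the short transcripts of Ly96 (429 bases), Cd14 (1641) and Myd88 (1960) were higher, by 1.69, 0.54 and 0.99 on the log2 scale. The longer ones of Tlr8 (3431 bases), Tlr9 (3478), Tlr4 (4077) and Tlr3 (4407) were lower, by -3.13, -1.53, -0.68 and -1.02. Tlr2 lay at 0.44, Tlr7 at -0.11 and Tlr1 at -0.19. The Spearman correlation of this difference with length was -0.73 over the 10 genes and -0.54 over 13098 genes of the same 2 libraries. Between the TAM libraries it was 0.75 and 0.38, with Cd14 at -0.91 and Tlr8 at 1.48. In LLC it was 0.39 and 0.30, and in Fibroblast 0.47 and 0.22. These correlations are across genes, which are not independent replicates, and no part of the difference was assigned to length. The whole tumors also differed in marker sums, with library 1 before library 2: 1360 and 3890 RPKM for macrophages, 134 and 597 for neutrophils, 47.8 and 2.3 for the 5 B cell markers and 46.3 and 6.75 for T and NK cells. The part of these cells in the differences was not tested. After each library was corrected for a trend on length, all 10 genes were called higher in TAM than in Total tumor, including Ly96 (1.65, limma adjusted p = 0.00524), Tlr3 (1.52, 0.00803) and Myd88 (1.37, 0.00333). The correction also moved the median difference of all genes in that comparison from -0.36 to 0.04. The share of all genes called after it was not counted.

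**Figure D4:**
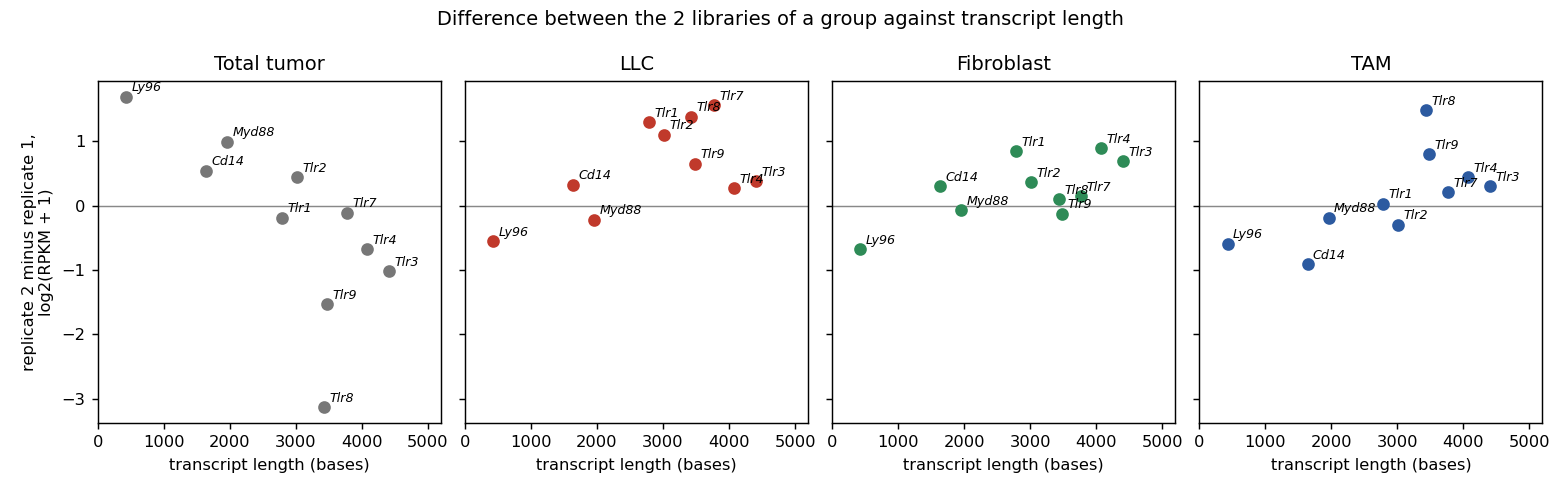
Difference between the 2 libraries of each group (y axis, log2(RPKM + 1), replicate 2 minus replicate 1) against transcript length (x axis, bases) for the 10 genes. In Total tumor the points fall from Ly96 (1.69) at the short end to Tlr8 (-3.13), and in TAM they run the other way, from Cd14 (-0.91) to Tlr8 (1.48).

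Pearson correlations of log2(RPKM + 1) over the 8 libraries describe which genes ran most alike, with the TAM libraries shared by every gene. Tlr1 and Tlr7 were the closest pair (r = 0.993), followed by Tlr8 and Tlr9 (0.978). Cd14 and Tlr2 were each closest to Tlr1 (0.964 and 0.928), Myd88 and Ly96 to each other (0.918), and Tlr4 to Tlr8 (0.882). Tlr3 had its best match in Tlr4, at 0.681, and its lowest with Ly96, at -0.169. Outside the 10, the genes closest to their mean profile were Ms4a8a (0.999), Cd163 (0.998), Slc28a2, Aoah and Fli1 (0.997 each). Of these, Cd163 encodes a macrophage scavenger receptor and Aoah an enzyme that inactivates lipopolysaccharide. Cd163 measured 112 and 147 RPKM in TAM and at most 2.65 in LLC and Fibroblast.

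The rest of the pathway was read from 7 lists. In the comparisons below, the shares of all genes called are those given above: 15.4% higher and 27.5% lower in TAM than in LLC, 17.4% and 17.3% in TAM than in Fibroblast, and 13% and 25.7% in Fibroblast than in LLC. Of the other Toll-like receptors and the related Cd180, all 4 with enough signal were higher in TAM than in LLC and than in Fibroblast, and none was called between Fibroblast and LLC. Tlr13, a receptor for bacterial ribosomal RNA that humans lack, measured 57.2 and 65.2 RPKM in TAM, while its LLC libraries held 0.479 and 2.96 and its Fibroblast libraries 0.551 and 1.16. It was 4.68 higher than in LLC and 5.09 higher than in Fibroblast (limma adjusted p = 0.000236 and 0.000158), and its TAM mean of 61.2 RPKM was above those of the 7 receptors described so far. Cd180 differed by 4.67 and 4.84 (adjusted p = 0.000248 and 0.000186). Tlr11 and Tlr12 stayed under 1 RPKM in every library and were not tested.

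Among 8 accessory, chaperone and trafficking proteins, 5 were higher in TAM than in LLC, and 5 were higher and 1 lower in TAM than in Fibroblast. Ly86, which pairs with Cd180, measured 311 RPKM in both TAM libraries and 3.2 to 7.99 in LLC and Fibroblast (differences 5.67 and 5.74, limma adjusted p = 0.000137 and 0.000116). The lower one was Lbp, the secreted protein that delivers lipopolysaccharide to Cd14. Lbp measured 579 and 651 RPKM in Fibroblast, 5.72 and 14.3 in TAM, 5.47 and 19.4 in LLC and 19.8 and 13.1 in Total tumor. Fibroblast stood apart from every other group, by 5.92 from TAM (TAM minus Fibroblast -5.92, SE 0.58, adjusted p = 0.000195) and by 5.74 from LLC (SE 0.58, adjusted p = 0.00049), and both calls held in all 16 alternatives. Cd14 and Lbp were therefore each high in a different sorted population. Unc93b1, the chaperone that carries Toll-like receptors to endosomes, was singled out after its values were seen. It measured 525 and 440 RPKM in TAM, 13.3 and 21.2 in LLC, and 39.5 and 36.8 in Fibroblast.

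The signalling machinery below the receptors was mixed. Of 14 adaptors and proximal kinases tested, 5 were higher and 2 lower in TAM than in LLC and 5 higher and none lower than in Fibroblast, with medians of -0.10 and 0.49 beside -0.38 and 0.13 over all genes. The 2 with the largest differences were Pik3ap1 (4.83 and 4.74, limma adjusted p = 0.00135 and 0.00138) and Btk, a tyrosine kinase of myeloid and B cells (4.31 and 4.50, adjusted p = 0.000127 and 0.000106; with a pseudocount of 5, 2.80 and 2.86, both called). The B cell markers were also higher in TAM than in LLC and Fibroblast, as given beside Tlr9. The TAM library higher in these markers was the lower one in Btk, which measured 32.8 and 39.5 RPKM there. In Total tumor Btk measured 7.22 and 6.89 RPKM. The part of B cells in the Btk level was not tested. Of 13 genes of the NF-kB and IRF relay, 3 were higher in TAM than in LLC, where 15.4% of all genes were, and 6 higher than in Fibroblast, where 17.4% were. None was lower in either, and the medians were 0.63 and 0.98. Irf5, a transcription factor that acts with Myd88, measured 151 and 143 RPKM in TAM, 2.03 and 5.76 in LLC and 2.29 and 4.15 in Fibroblast. Its differences were 5.03 and 5.17 (adjusted p = 0.000176 and 0.00014).

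Of 11 inhibitors and feedback genes, 4 were higher and 1 lower in TAM than in LLC, 2 higher and 1 lower in TAM than in Fibroblast, and 2 higher and 1 lower in Fibroblast than in LLC. The higher calls against Fibroblast, and those in Fibroblast against LLC, were close to the shares over all genes (17.4% and 13%). Among the calls was Dusp1, higher in TAM and in Fibroblast than in LLC (3.75 and 2.90, the second lost in 3 of 16 alternatives). Dusp1 is also among the dissociation response genes summed below, and the part of that response in these counts was not tested. Irak3 encodes IRAK-M, a brake on Myd88 signalling best known from macrophages, and it was highest in Fibroblast. It measured 53.3 and 60.5 RPKM in Fibroblast, 11.6 and 16.1 in TAM, 0.747 and 2.28 in LLC and 3.68 and 6.87 in Total tumor. The groups did not overlap, and TAM minus Fibroblast was -1.98 (SE 0.39, limma adjusted p = 0.00551), Fibroblast minus LLC 4.59 (SE 0.39, 0.000346) and TAM minus LLC 2.61 (SE 0.39, 0.00147). All 3 calls held in all 16 alternatives, the last at 1.53 with a pseudocount of 5. Sigirr, a membrane inhibitor of interleukin-1 and Toll-like receptor signalling, had another pattern, at 30.5 and 23.0 RPKM in LLC, 25.3 and 37.4 in Total tumor, 1.30 and 2.70 in TAM and 0.728 and 1.70 in Fibroblast. TAM minus LLC was -3.24 and Fibroblast minus LLC -3.67 (SE 0.37 each, adjusted p = 0.000441 and 0.000511), and both held in all 16 alternatives, the second at -2.35 with a pseudocount of 5.

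Of 12 target genes tested, 7 were higher in TAM than in LLC, and 6 were higher and 1 lower in TAM than in Fibroblast. The chemokine Ccl3 measured 387 and 126 RPKM in TAM, 4.04 and 4.15 in LLC and 6.36 and 2.14 in Fibroblast. Its differences were 5.44 and 5.53 (limma adjusted p = 0.000282 and 0.000219). The lower gene was the cytokine Il6, at 75.5 and 9.94 RPKM in Fibroblast, 3.13 and 1.24 in TAM, 1.33 and 0 in LLC and 2.96 and 0 in Total tumor. TAM minus Fibroblast was -3.25 (SE 0.99, adjusted p = 0.0372), not called without Fibroblast 1 (-1.85, 0.213), TAM 1 (-3.69, 0.0891) or TAM 2 (-2.81, 0.17), with a pseudocount of 0.1 (0.172), no filter (0.0689) or only these groups (0.0624), in a range from 0.00282 to 0.213. Fibroblast minus LLC was 4.24 (SE 0.99, adjusted p = 0.0131), not called without Fibroblast 1 (2.84, 0.0731) or LLC 2 (3.63, 0.0757) and at 2.62 with a pseudocount of 5, in a range from 0.00203 to 0.0757. The 10 genes of the tissue dissociation response summed to 4340 and 1880 RPKM in Fibroblast, 4140 and 2310 in TAM, 1030 and 755 in LLC and 1250 and 512 in Total tumor. This sum, though not each of its genes, was higher in the library numbered 1 of each group, as Il6 and Ccl3 were in Fibroblast and TAM, and its part in these target levels was not tested.

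Endosomal receptors are cut by lysosomal proteases before they can signal. Of 5 such proteases, 4 were higher in TAM than in LLC, and 3 were higher and 1 lower in TAM than in Fibroblast. Ctss differed by 6.21 and 6.19 (limma adjusted p = 0.000681 and 0.000623) and Lgmn by 4.35 and 3.53 (adjusted p = 0.000265 and 0.000522). The lower one, Ctsk, measured 200 and 236 RPKM in Fibroblast and 16.0 and 15.2 in TAM (-3.72, adjusted p = 0.000188).

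**Figure D5:**
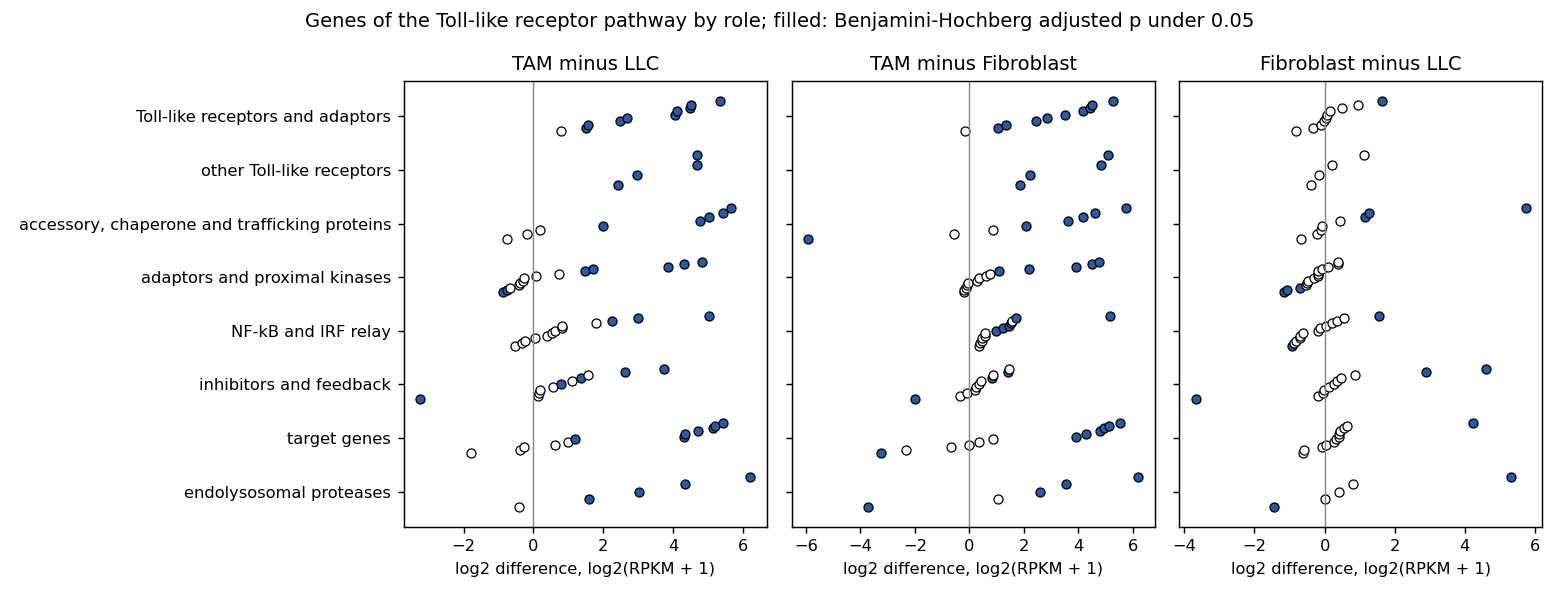
Log2 differences (x axes, log2(RPKM + 1)) of the 10 genes and of 7 further lists of the pathway, 1 point a gene, in the 3 comparisons of sorted populations. Filled points have an adjusted p under 0.05. Receptors other than Tlr3 lie to the right in both TAM comparisons, and Lbp (-5.92) and Irak3 (-1.98) lie to the left in TAM minus Fibroblast.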

How the data were processed

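The deposited table holds RPKM values for 31645 RefSeq transcripts in 8 libraries, computed by the authors from 50 bp reads of oligo-dT cDNA made from 200 ng of RNA, per the labels. STAR, HOMER and mm9 are named in the submitters' processing notes, and no source used here gives versions, the strand setting or which reads set the library size. The 3 unnamed transcripts were dropped and 1 transcript per symbol was kept, that with the largest mean. Genes reaching 1 RPKM in 2 or more libraries entered the test on log2(RPKM + 1) in 1 limma fit (3.58.1, R 4.3.3) with a mean-variance trend over 4 groups of 2. Benjamini-Hochberg adjustment ran over 13311 genes and 6 pairs of groups were compared. An exact permutation test of 2 against 2 libraries cannot go below 0.333, so none is given.

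The 10 genes and the gene lists were chosen with earlier results of these data known. Pathway genes outside the 10 were named as the largest called changes of each list, up to 2 a direction and comparison, and the alternatives for them were chosen after seeing the data. Unc93b1, Tlr6, Tlr11, Tlr12 and Acaa1a were named outside that rule. Alternatives were pseudocounts of 0.1 and 5, no filter, upper-quartile and quantile scaling, a fit of only the 2 groups, a replicate block, a lowess correction for transcript length and leaving out each library. Depth was estimated from low values, 57.73 to 62.3% of which lay within 0.05 of a whole read. Lengths came from GENCODE M21 by RefSeq accession and matched 98.4% of tested genes. Promoter windows came from RefSeq (GRCm38.p6) and were used for Tlr1, Tlr2, Tlr3, Tlr8, Tlr9 and Myd88. No words are given for Cd14, Ly96, Tlr4 or Tlr7. A single gene of the marker lists is not reported here.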

Additional observations from a re-analysis of the deposited data

How the results depend on the processing

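Of 60 differences (10 genes in 6 comparisons), 32 were called, 11 of them under all 16 alternatives and 21 not under at least 1. Of the 28 not called, 14 were called under at least 1. The 11 were Cd14, Tlr1, Tlr2, Tlr7 and Tlr9 in TAM against LLC and against Fibroblast, and Cd14 in Fibroblast against Total tumor. No called difference changed sign. Having 2 libraries a group and an estimated 4.28 M reads in the shallowest limits what can be seen below about 1 RPKM, and the cause of the changes below was not tested.

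Counts of called genes moved as follows, and the shares of all genes called under these alternatives were not counted. Fibroblast against LLC gave 2 higher with upper-quartile scaling and in a fit of only those groups, 3 with quantile scaling and length correction, and 0 to 3 with a library left out. TAM against Total tumor gave 4 higher with a pseudocount of 0.1, 3 in a fit of only those groups and 4 to 8 with a library left out. LLC against Total tumor gave 0 lower with no filter and in a fit of only those groups, and 0 to 4 with a library left out. Fibroblast against Total tumor gave 0 higher with a pseudocount of 0.1, no filter, only those groups or the replicate block, and 0 to 1 with a library left out. Its lower genes numbered 1 with a pseudocount of 0.1 and 1 to 5 with a library left out. TAM against LLC gave 7 to 10 higher and TAM against Fibroblast 6 to 9 over all alternatives.

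Signs turned in 29 values, none of a called difference. In Fibroblast minus LLC, Tlr1 became 0.33 (pseudocount 0.1), 0.17 (upper quartile), 0.32 (length), 0.64 (without LLC 2) and 0.42 (without Fibroblast 1). Tlr7 became 0.17, 0.12, 0.22 and 0.67 under the first 4 of these, and Tlr8 0.03 (length) and 0.38 (without LLC 2). With a library left out these values ran from -0.65 to 0.64 for Tlr1, -0.89 to 0.67 for Tlr7 and -1.01 to 0.38 for Tlr8, and from -0.29 to 0.61 for Tlr4, -0.08 to 0.24 for Cd14 and -0.30 to 0.38 for Ly96. Tlr4 became -0.29 and Cd14 -0.07 without Fibroblast 2, Cd14 -0.08 without LLC 1, and Ly96 -0.23 without LLC 2 and -0.30 without Fibroblast 1. In LLC minus Total tumor, Tlr3 became -0.17 and Tlr4 -0.20 without Total tumor 2, Tlr8 0.82 and Tlr9 0.46 without Total tumor 1, and Tlr9 0.02 without LLC 1, the ranges being -0.17 to 0.85, -0.20 to 0.48, -2.31 to 0.82 and -1.07 to 0.46. In Fibroblast minus Total tumor, Tlr4 became -0.04 without Total tumor 2 and -0.14 without Fibroblast 2, and Tlr8 0.50 without Total tumor 1, the ranges being -0.14 to 0.75 and -2.63 to 0.50. Myd88 there became 0.49 (upper quartile), 0.40 (quantile), 0.44 (length) and 0.38 (without Total tumor 2), with a range of -0.61 to 0.49. In TAM minus Fibroblast, Tlr3 became 0.19 without Fibroblast 2, in a range of -0.50 to 0.19.

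Upper-quartile scaling moved the median of all genes by more than 0.1 in 5 of the 6 comparisons, from -0.46 to -0.05 in Fibroblast minus LLC and from -0.51 to -0.01 in Fibroblast minus Total tumor. Other settings moved these medians as well. They became -0.19 and -0.13 with quantile scaling, -0.13 and -0.08 with length correction, and -0.18 and -0.24 with no filter.

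The labels do not say that a replicate number marks a shared animal or day, so the block was not used in the reported values. Deviations of same-numbered libraries correlated at 0.16 to 0.27 among the sorted groups and at -0.18 to -0.36 with Total tumor, and libraries numbered 1 were the deeper ones throughout. With a replicate block, 9 genes were higher in TAM than in LLC, 8 than in Fibroblast and 6 than in Total tumor, and 1 was higher in Fibroblast than in LLC. Against Total tumor 2 were lower in LLC and 3 in Fibroblast, with 0 higher there. The shares of all genes called under the block were not counted. The calls lost under the block were Myd88 (TAM against Fibroblast), Tlr8 (TAM against Total tumor) and Tlr3 (Fibroblast against Total tumor).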
